A study of Homo sapiens with 2 samples.

Results

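Binding of MLL3 and GRHL2 was examined at 5 genes of the ERBB pathway, the receptors EGFR, ERBB2 and ERBB3 and the ligands EREG and AREG, in KYSE510 cells, a human line established from an esophageal squamous cell carcinoma. Chromatin fixed with formalin had been sonicated and immunoprecipitated, 1 library being made with an MLL3 antibody and 1 with a GRHL2 antibody, and each list of enriched regions had been called against input. The cells carried no stated genetic change or treatment. A region belonged to a gene when its summit lay in the gene or within 50 kb of it on either side (hg19, gene bounds to the nearest kb), and a summit within reach of both EREG and AREG went to the nearer one. This gave 9 of the 12150 MLL3 regions and 59 of the 152864 GRHL2 regions on the assembled chromosomes. With 1 library per antibody there was no replicate, no difference between conditions could be tested, and every value describes these libraries.

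EGFR is a receptor tyrosine kinase of epithelial cells that dimerises when a ligand binds it. ERBB2 has no known ligand of its own and acts as a partner of the other receptors, and ERBB3 has a weak kinase and signals through its partner. Amphiregulin, the product of AREG, binds EGFR, and epiregulin, the product of EREG, binds EGFR and ERBB4. In squamous epithelium this pathway is known for driving growth of the basal cells, and EGFR is often overexpressed in esophageal squamous carcinoma. MLL3 (KMT2C) is a histone methyltransferase that marks enhancers, and GRHL2 belongs to the Grainyhead-like transcription factors, which keep up epithelial gene expression.

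The starts of these genes differed in what the lists held there. A GRHL2 region covered the start, rounded to the nearest kb, of EGFR, of ERBB2 and of ERBB3, but of very unequal strength. That of ERBB3 had a fold of 106, and that of ERBB2 a fold of 3.82 and a −log10 q of 4.12. That of EGFR had a fold of 2.24 and a −log10 q of 0.700, so that it did not pass a q of 0.05. A second GRHL2 region, within 1 kb of the EGFR start but not over it, had a fold of 4.88 and a −log10 q of 11.3. An MLL3 region lay within 1 kb of the start of ERBB3. No region of either list lay within 1 kb of the start of EREG or AREG. The RefSeq windows from 250 bases before to 50 bases after the gene start (GRCh38.p14, plus strand, 5′ to 3′) are shown for the genes matched in the table, 4 of the 5. Starts with a GRHL2 region within 1 kb (EGFR, ERBB2) can so be read beside starts without one (EREG, AREG). The table also holds a second EGFR window, not printed, whose start lies 90.8 kb after the first in that build. Capitals mark the bases from the gene start onward. These windows are on another genome build than the regions and were not lined up with them base by base. The EGFR region over the rounded start was only 344 bp wide, so it need not cover the exact start or the printed window.
EGFR, chr7:55018767-55019066: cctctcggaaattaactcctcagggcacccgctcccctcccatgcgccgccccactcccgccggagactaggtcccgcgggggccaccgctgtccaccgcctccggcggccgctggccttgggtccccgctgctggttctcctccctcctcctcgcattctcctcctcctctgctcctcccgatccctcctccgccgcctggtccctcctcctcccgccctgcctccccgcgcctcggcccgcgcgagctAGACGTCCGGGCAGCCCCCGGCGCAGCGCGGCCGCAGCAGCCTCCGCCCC
ERBB2, chr17:39687844-39688143: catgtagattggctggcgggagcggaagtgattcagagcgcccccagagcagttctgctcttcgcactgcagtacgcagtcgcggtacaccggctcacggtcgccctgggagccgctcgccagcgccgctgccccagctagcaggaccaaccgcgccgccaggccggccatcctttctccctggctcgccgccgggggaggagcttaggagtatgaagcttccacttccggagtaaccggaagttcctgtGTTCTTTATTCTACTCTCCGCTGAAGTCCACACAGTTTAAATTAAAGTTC
EREG, chr4:74364895-74365194: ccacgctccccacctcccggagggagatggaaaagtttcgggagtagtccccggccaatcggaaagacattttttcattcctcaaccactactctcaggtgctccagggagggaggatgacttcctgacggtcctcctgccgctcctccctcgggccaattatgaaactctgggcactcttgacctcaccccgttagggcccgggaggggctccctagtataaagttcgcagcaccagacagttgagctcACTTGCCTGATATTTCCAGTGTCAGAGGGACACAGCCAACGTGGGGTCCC
AREG, chr4:74444886-74445185: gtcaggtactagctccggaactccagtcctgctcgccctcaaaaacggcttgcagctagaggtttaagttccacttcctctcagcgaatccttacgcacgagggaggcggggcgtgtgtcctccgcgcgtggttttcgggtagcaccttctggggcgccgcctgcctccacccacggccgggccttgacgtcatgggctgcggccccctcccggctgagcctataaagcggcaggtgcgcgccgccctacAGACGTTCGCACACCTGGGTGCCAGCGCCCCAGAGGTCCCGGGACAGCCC

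The Grainyhead motif was not found in these windows. Neither AACCGGTT nor the looser AACNNGTT, which contains it, occurred on either strand in any of the 4, nor in the second EGFR window. Both motifs read the same on the other strand. Of all 35116 RefSeq windows of this length, 0.134% held AACCGGTT and 3.52% held AACNNGTT. At such low shares absence from a few windows was likely, so it says little about GRHL2 binding. ERBB3, with the strongest region at a start, had no window. The windows at EGFR and AREG were the richest in G and C (75.3% and 66.3%), with 60.7% at ERBB2, 57.7% at EREG, 42.0% at the second EGFR start and a median of 58.7% over all windows.

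The lists ended at different thresholds, so their lengths are not comparable. The lowest −log10 q was 2.07 in the MLL3 list. In the GRHL2 list it was 0, with a lowest −log10 p of 1.30, and 30080 of its regions (19.7%) had a −log10 q of at least 2. The fold, q and p of a region are given as the authors deposited them. The depth of the libraries was recovered only at the summits: a whole number of fragments and a local background gave the deposited fold, as fragments plus 1 over background plus 1, and the deposited p, as a Poisson tail, to within 0.001 of −log10 p in all 12150 MLL3 and all 152864 GRHL2 regions. A median MLL3 region rested on 17 fragments and a median GRHL2 region on 6. The 95% intervals given for fragments are exact Poisson intervals and cover counting error only, since duplicates and the spread between cultures were not measured.

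EGFR held the most MLL3 regions of the 5 genes, 6, all of them inside the gene, and every one overlapped a GRHL2 region. Their summits fell 24.6, 34.7, 55.0, 90.2, 91.9 and 113.6 kb from the start of this gene of 188 kb, and none lay at the start itself. The sites at 90.2 and 91.9 kb were thus near the middle of the gene, at about the distance, 90.8 kb, at which RefSeq places the second start in the other build. In the same order the MLL3 fold was 7.78, 4.30, 5.61, 5.20, 4.65 and 5.11. The GRHL2 fold of the overlapping regions was 15.3, 26.8, 3.66, 11.9, 14.3 and 5.31. The highest fold was not at the same site for both factors: MLL3 was highest at 24.6 kb (chr7:55111427-55111874), and GRHL2 at the next site, 34.6 kb (chr7:55120819-55122366). At 34.7 kb the MLL3 fold was the lowest of the 6, over a local background of 4.58 fragments, but its 23 MLL3 fragments did not differ beyond counting error from those of the 4 sites farther into the gene.

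Counted in fragments, 1 MLL3 site had the most and the other 5 lay close together. The site at 24.6 kb had 45 MLL3 fragments (95% interval 32.8 to 60.2), and the others had 20 to 24. Its interval overlapped those of the sites at 34.7, 55.0 and 113.6 kb, whose upper bounds were 34.5, 34.5 and 35.7, and not those at 90.2 and 91.9 kb, whose upper bounds were 32.1 and 30.9. The GRHL2 sites spread further, with 157 fragments (133 to 184) at 34.6 kb, 98 (79.6 to 119) at 24.6 kb and 82 (65.2 to 102) at 92.0 kb. The remaining 3 shared GRHL2 sites had 57 (43.2 to 73.9) at 90.2 kb, 29 (19.4 to 41.6) at 113.8 kb and 16 (9.15 to 26.0) at 55.0 kb. The highest of these stood clear of the rest, and the sites at 24.6 and 92.0 kb could not be told apart by counting error.

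The other 9 of the 15 GRHL2 regions at EGFR had no MLL3 region. Over the whole list, 6.15% of GRHL2 regions overlapped one. The strongest lay 101.6 kb from the start (chr7:55188245-55188958), with a fold of 13.8 and 97 fragments (78.7 to 118), as many as at 24.6 kb within counting error. The region over the gene start as rounded to the nearest kb (chr7:55086843-55087186) was weak, with a fold of 2.24, 12 fragments and a −log10 q of 0.700. A second one lay just inside the gene, with its summit 1.3 kb from the start (chr7:55087999-55088577, fold 4.88, 32 fragments, −log10 q 11.3). Among the others, the region at 67.2 kb had a fold of 5.82 and 27 fragments, and the 5 that remained had folds of 2.35 to 3.23, of which 1 lay beyond the gene, 48.6 kb past its end.

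**Figure D1:**
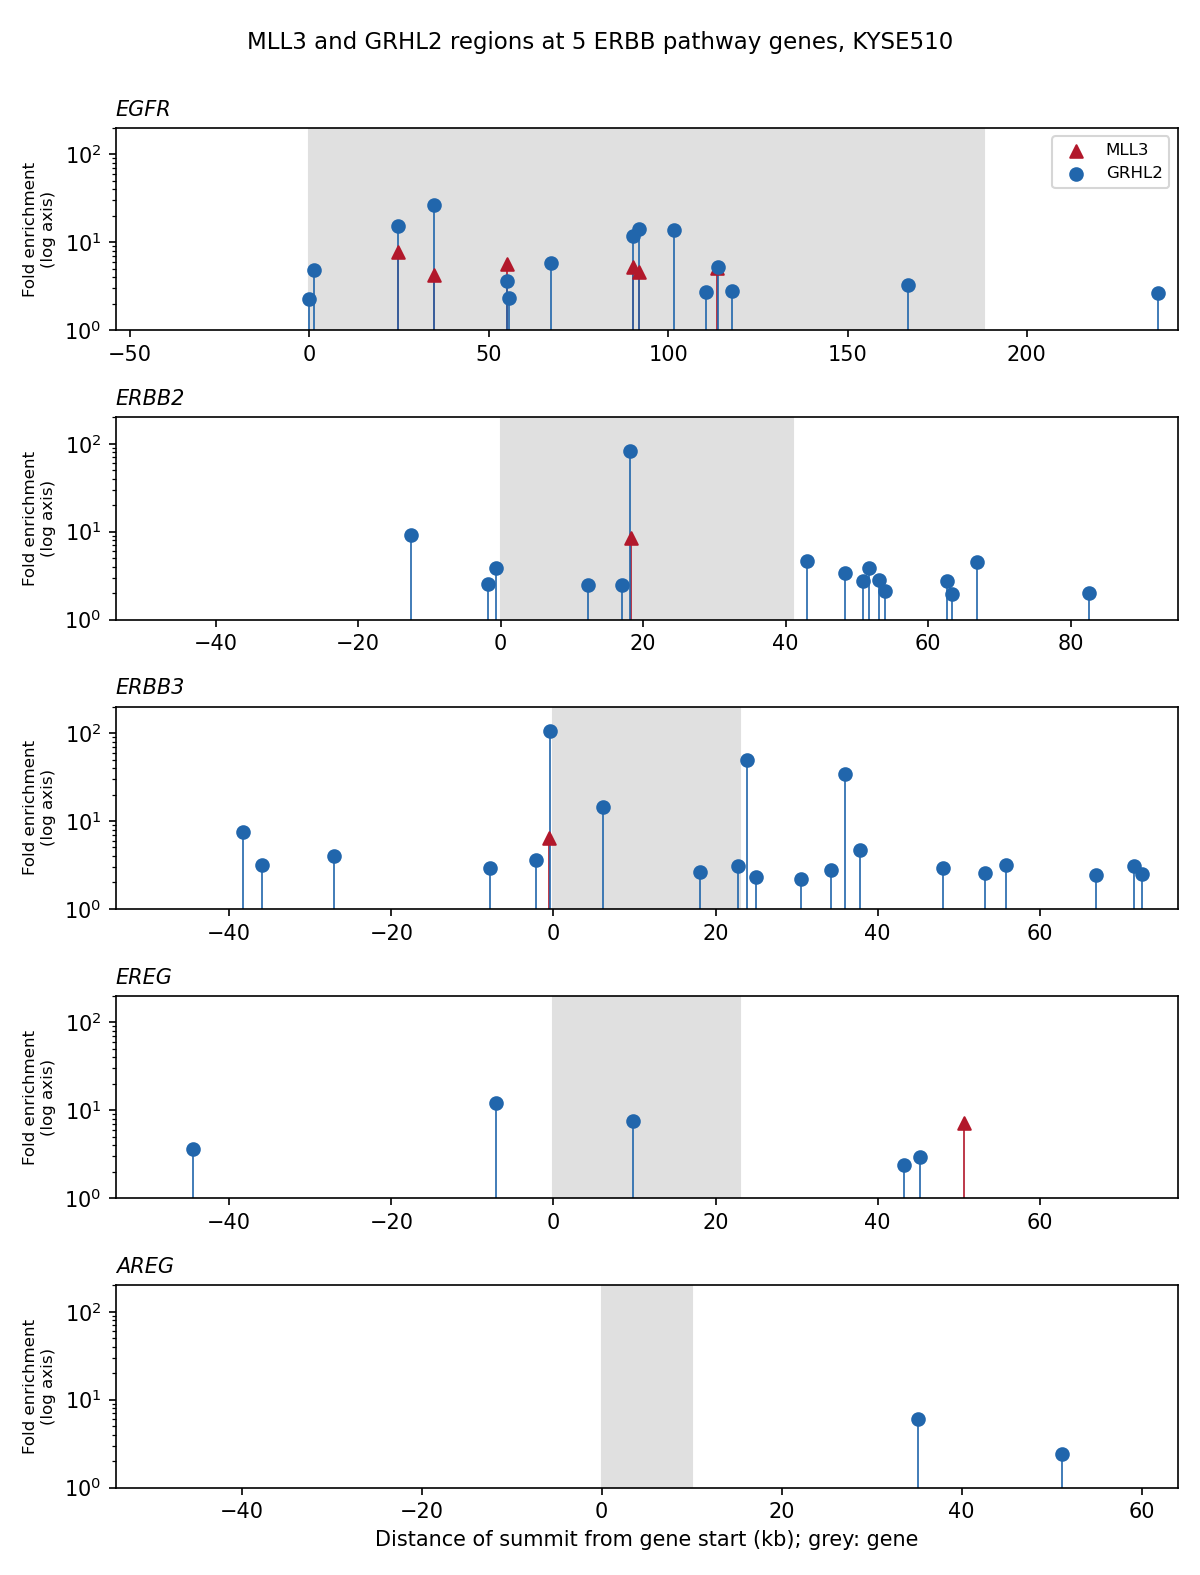
Fold enrichment (log axis) of each MLL3 region (red triangles) and GRHL2 region (blue circles) against the distance of its summit from the gene start in kb, with the gene in grey, for each of the 5 genes. The 6 MLL3 regions of EGFR lie 24.6 to 113.6 kb inside the gene, those of ERBB2 and ERBB3 stand on the strongest GRHL2 region of each locus, and that of EREG stands apart from any GRHL2 region.

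ERBB2 carried 1 dominant site, inside the gene, where both factors were listed. The GRHL2 region (chr17:37861607-37863147) had its summit 18.2 kb from the gene start, a fold of 81.9 and 306 fragments (273 to 342), and ranked 331 of 152864 by fold. It held the MLL3 region of the locus (chr17:37862163-37862504), which had a fold of 8.51 and 27 fragments (17.8 to 39.3). The MLL3 summit was 79 bp from that of GRHL2. The next GRHL2 region in strength was upstream, 12.5 kb before the start (chr17:37831172-37831815), with a fold of 9.12, 37 fragments (26.1 to 51.0) and no MLL3 region.

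The remaining GRHL2 regions of the ERBB2 locus had folds of 4.63 or lower, against a list median of 2.77. The region over the start (chr17:37843270-37844491) had a fold of 3.82, 16 fragments and a −log10 q of 4.12. Another, 1.7 kb before the start, had a fold of 2.53. Inside the gene 2 more had folds of 2.47 and 2.49, at 12.2 and 17.1 kb. Past the end of the gene 10 regions followed between 2.0 and 41.6 kb, with folds of 1.95 to 4.63. Next in strength at the locus was the one nearest to the gene (chr17:37886551-37887395, fold 4.63, 16 fragments). In RefSeq the protein-coding genes next after ERBB2 are MIEN1, GRB7 and IKZF3, and the gene before it is PGAP3. Regions were not assigned to these neighbours.

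At ERBB3 the GRHL2 region of highest fold at the 5 loci lay over the gene start, while by fragments and by q the ERBB2 region was higher (306 fragments and a −log10 q of 493, against 264 and 478 at ERBB3), with counting intervals that overlapped. The ERBB3 region was 2441 bp wide (chr12:56472575-56475015), had a fold of 106 and 264 fragments (233 to 298), and ranked 112 of 152864 by fold. The MLL3 region inside it (chr12:56473400-56473823) had a fold of 6.41 and 14 fragments (7.65 to 23.5), the fewest of the 9 MLL3 regions, with its summit 58 bp from that of GRHL2 and 0.5 kb before the gene start. That MLL3 region was above 48.2% of its list by fold and above 24.9% by fragments.

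Strong GRHL2 regions without MLL3 also lay at ERBB3. The second strongest of the locus (chr12:56497163-56498587) was 0.9 kb past the end of the gene, with a fold of 49.7 and 149 fragments (126 to 175). Next was a region (chr12:56509369-56510543) 13.0 kb past the end, with a fold of 34.0 and 84 fragments (67.0 to 104). Inside the gene, 6.1 kb from its start, a region had a fold of 14.4 and 35 fragments (24.4 to 48.7). None of these overlapped an MLL3 region. Over the list, 51.7% of GRHL2 regions with −log10 q ≥ 20 overlapped one, and 76.2% of those with −log10 q ≥ 100. The first of these ERBB3 regions had more GRHL2 fragments than 5 of the 6 shared EGFR sites. It did not differ beyond counting error from the sixth. The other 17 GRHL2 regions had folds of 2.18 to 7.59. In RefSeq, PA2G4, RPL41, ZC3H10 and ESYT1 follow ERBB3, and regions were not assigned to them.

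The ligand genes held few regions, and no region of either list lay inside AREG. EREG had 5 GRHL2 regions, the strongest 7.1 kb before its start (chr4:75223431-75224296, fold 12.0, 29 fragments, 19.4 to 41.6) and the next inside the gene, 9.8 kb from its start (chr4:75240252-75240989, fold 7.59, 18 fragments, 10.7 to 28.4). Their counting intervals overlapped. Another lay 44.5 kb before the start (fold 3.60, 8 fragments), and the other 2, past the end of the gene, had folds of 2.40 and 2.98. None of the 5 overlapped an MLL3 region, and only 6.15% of all GRHL2 regions in the list did.

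The single MLL3 region of the ligand genes lay between EREG and AREG, 27.6 kb past the end of EREG (chr4:75281503-75281744). Its summit was also within 50 kb of AREG, and it was counted at EREG only because that gene was nearer. It had a fold of 7.09 and 15 fragments (8.40 to 24.7). It was the 1 member of the MLL3 list that overlapped no GRHL2 region, and the nearest GRHL2 summit was 5437 bp away, in a region of fold 2.98. AREG was thus assigned no MLL3 region. Its 2 GRHL2 regions lay 25.2 kb past its end (chr4:75345955-75346424, fold 6.00, 16 fragments, 9.15 to 26.0) and 41.2 kb past its end (fold 2.40, 5 fragments). A factor may bind where no region was listed: at a background within 10% of the lowest, 1.26, the MLL3 list held no region of fewer than 8 fragments, and at that of the EGFR regions, within 10% of 3.70, none of fewer than 14.

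Over the 5 genes, MLL3 regions met GRHL2 regions at a share near that of their list. Of the 9, 8 overlapped a GRHL2 region (88.9%, exact Clopper-Pearson 95% interval 51.8 to 99.7%), against 85% of the whole list. A GRHL2 summit lay within 100 bp of 6 of the 9 MLL3 summits (66.7%, 29.9 to 92.5%), against 41.7% of the whole list, which lies in the interval. In the 8 shared regions the summits were 4 to 170 bp apart, with a median of 68.5 bp, against 104 bp over 10327 shared regions of the list. Each of the 8 MLL3 regions lay wholly inside its GRHL2 region (100%, 63.1 to 100%), against 70.9% of the list's shared regions. All 8 partners had a −log10 q of at least 2, against 80.6% of the list's shared regions. Counted over all MLL3 regions, 8 of the 9 had such a partner (88.9%, 51.8 to 99.7%), against 68.5% of the list. In each of these the share of the list lay inside the interval. The intervals for shares treat regions as independent draws. However, 6 of the 9 MLL3 regions lay in 1 gene, EGFR, which the intervals do not take into account.

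Seen from GRHL2, 8 of the 59 regions carried MLL3 (13.6%, 6.04 to 25%), against 6.15% of the whole list. The members held more significant regions than the list at large: 30 of the 59 had a −log10 q of at least 2 (50.8%, 37.5 to 64.1%), against 19.7%, and 5 had a −log10 q ≥ 100 (8.47%, 2.81 to 18.7%), against 1.41%. Among those 30 the share with MLL3 was 8 (26.7%, 12.3 to 45.9%), close to the 24.5% of the list. For −log10 q ≥ 20 it was 6 of 12 (50%, 21.1 to 78.9%), against 51.7% of the list, and for −log10 q ≥ 100 it was 3 of 5 (60%, 14.7 to 94.7%), against 76.2%. In each of these classes the share of the list lay inside the interval at the 5 genes. These intervals too take no account of neighbouring regions, and 6 of the 8 shared GRHL2 regions lay in EGFR.

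Shared GRHL2 regions were stronger and wider than the unshared ones at these genes, as they were in the list. The 8 shared regions had a median fold of 14.8 (3.66 to 106) and a median width of 1122.5 bp, and the 51 others had a median fold of 2.98 (1.95 to 49.7) and a median width of 456 bp. Over the list the medians were 5.39 and 907 bp in the 9404 shared regions, and 2.69 and 349 bp in the others. The ranges overlapped. A −log10 q ≥ 20 was reached by 6 of the 8 shared regions (75%, 34.9 to 96.8%), against 33.5% of the list's shared regions, and by 6 of the 51 unshared ones (11.8%, 4.44 to 23.9%), against 2.05% of the list's unshared regions.

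**Figure D2:**
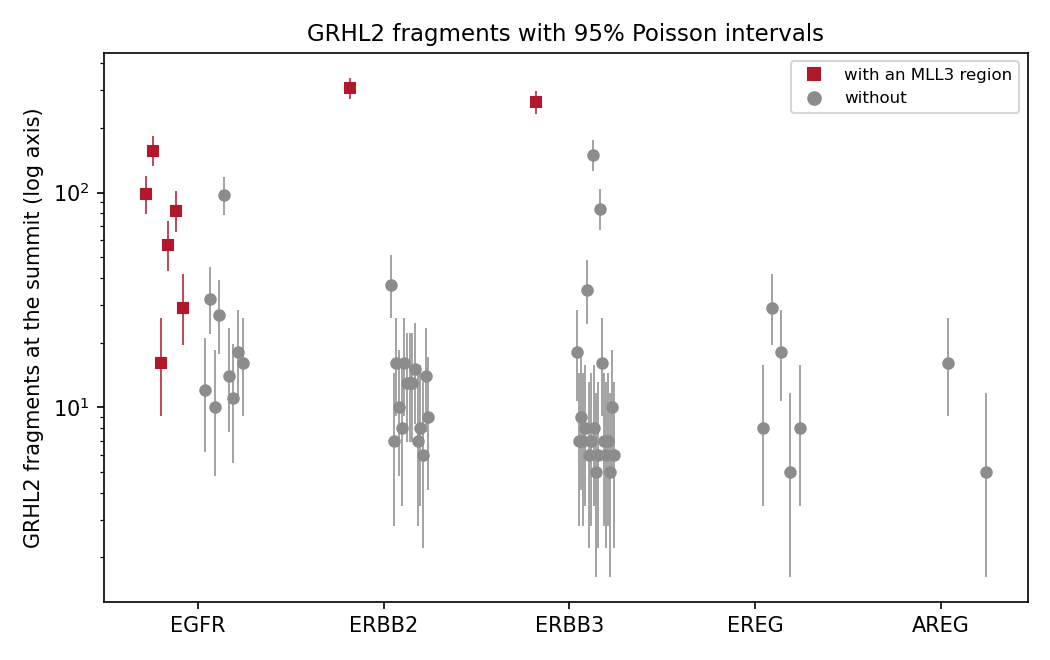
Number of GRHL2 fragments at the summit (log axis) of each GRHL2 region by gene, with 95% Poisson intervals as bars, for regions with an MLL3 region (red squares) and without one (grey circles). The shared regions of ERBB2 and ERBB3, with 306 and 264 fragments, stand highest, and regions without MLL3 reach 149 fragments at ERBB3 and 97 at EGFR.

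**Figure D3:**
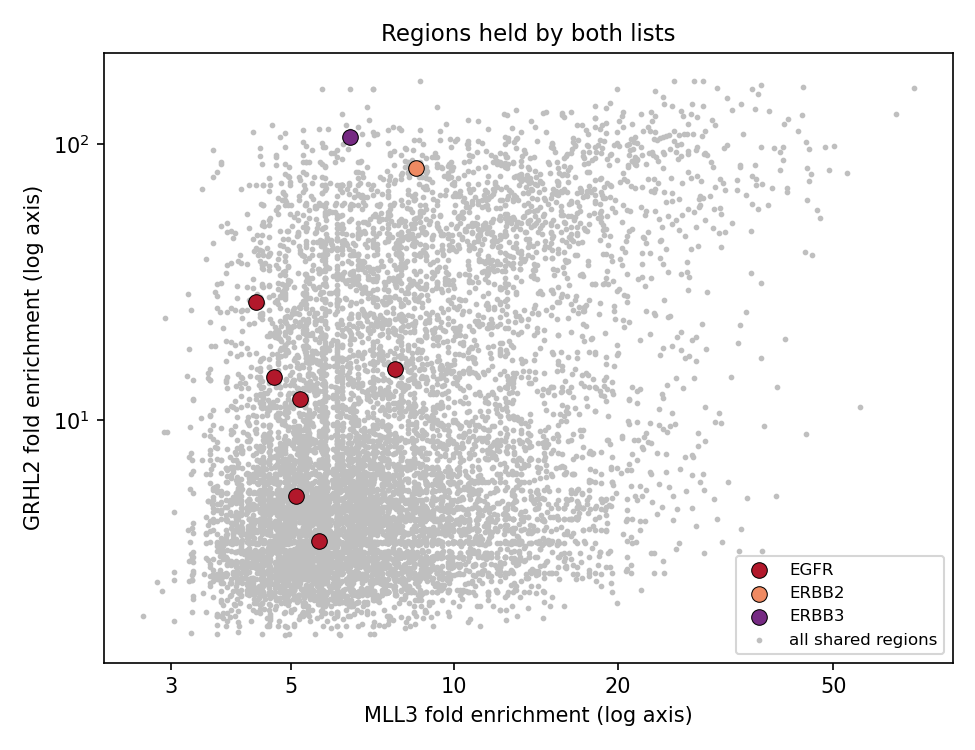
GRHL2 fold enrichment against MLL3 fold enrichment (log axes) of the regions held by both lists, with those of EGFR, ERBB2 and ERBB3 in colour and all shared regions in grey. The MLL3 folds of the 8 coloured points run from 4.30 to 8.51, whereas their GRHL2 folds run from 3.66 to 106.

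Where the MLL3 regions of the ERBB genes stood in their list depended on the measure, while some GRHL2 regions were near the top of theirs. The 9 MLL3 folds ran from 4.30 to 8.51 with a median of 5.61, against 6.49 for the list, and 3 of the 9 were above the list's median (33.3%, 7.49 to 70.1%), against 49.6% of the list. By fragments 7 of the 9 were above it (77.8%, 40 to 97.2%), against 49.2% of the list, so the direction turned, and both intervals held the share of the list. Of the 59 GRHL2 folds, 12 were above the 95th percentile of their list (20.3%, 11 to 32.8%), against 4.96% of the list, and the median was 3.20 against 2.77. Of the 12, 5 were at EGFR, 4 at ERBB3, 2 at ERBB2 and 1 at EREG.

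Density differed by gene and by factor, with the stretch within reach of both EREG and AREG split at its middle. EGFR had 20.8 MLL3 regions per Mb of its window, against 3.82 in the rest of the surrounding 5 Mb and 4.06 over the list. For ERBB2 the MLL3 density was 7.09 against 7.41 around it, for ERBB3 8.13 against 4.72, and for EREG 9.85 against 1.84, each of these 3 windows resting on 1 region. That of EREG was also within reach of AREG, to which no MLL3 region was assigned. GRHL2 regions were densest at ERBB3, with 171 per Mb against 76.5 around it, followed by ERBB2 with 113 against 57.6. EGFR had 52.1 against 36.7, EREG 49.3 against 16.1 and AREG 22.6 against 17.5, with 51.1 over the list. Limited to a −log10 q of at least 2, the GRHL2 densities were 65.0 at ERBB3, 56.7 at ERBB2, 34.7 at EGFR, 29.6 at EREG and 11.3 at AREG, against 10.1 over the list.

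**Figure D4:**
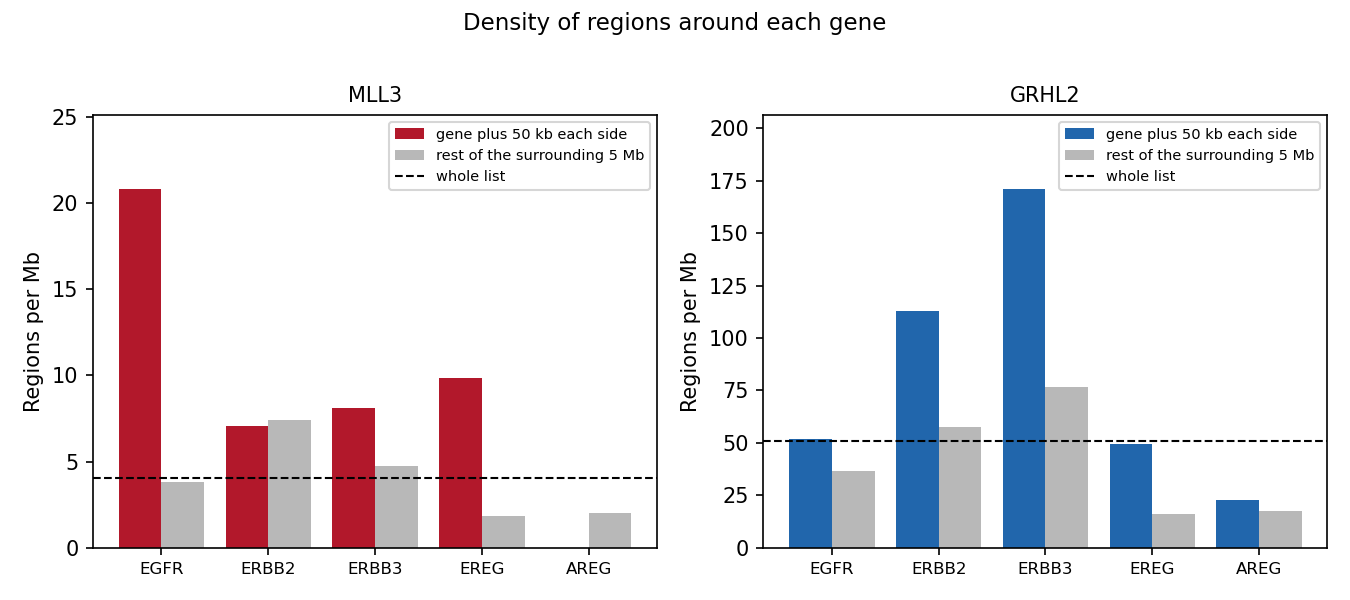
Regions per Mb in each gene with 50 kb on either side (coloured bars), in the rest of the surrounding 5 Mb (grey bars) and over the whole list (dashed line), for MLL3 and GRHL2. MLL3 stands out at EGFR with 20.8 per Mb, and GRHL2 at ERBB3 with 171 per Mb. The MLL3 region between EREG and AREG is counted at EREG, the nearer gene, so AREG shows none.

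The local background behind the fold was highest at EGFR, and above the list medians at ERBB2 as well. It was 3.23 to 4.91 fragments in the 6 MLL3 regions there, against a median of 1.64 over the MLL3 list, and 3.24 to 6.10 in the 15 GRHL2 regions, against a median of 1.65 and a 99th percentile of 4.03 over the GRHL2 list. At ERBB2 it was 2.29 in the MLL3 region and 2.16 to 4.61 in the GRHL2 regions, with a median of 2.77. At ERBB3, EREG and AREG it ran from 1.50 to 2.88 in the GRHL2 regions, and 15 of the 28 there had the lowest value of the list, 1.50, as did 42.3% of the list. Over the 5 genes, 22 of the 59 GRHL2 regions (37.3%) had a background above the 95th percentile of the list, 3.05, against 5% of the list. They were all 15 of EGFR, and the others were at ERBB2. Of the 9 MLL3 regions 4 did so (44.4%), all at EGFR, against 4.73%.

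A given number of fragments therefore counted for less fold at EGFR than at ERBB3 or EREG. The EGFR site at 34.7 kb had 23 MLL3 fragments and a fold of 4.30, whereas the ERBB3 site had 14 fragments and a fold of 6.41. The MLL3 site of EGFR at 24.6 kb was above 65.6% of the list by fold and above 93.3% by fragments. The part of the background in the count or strength of EGFR regions was not tested.

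**Figure D5:**
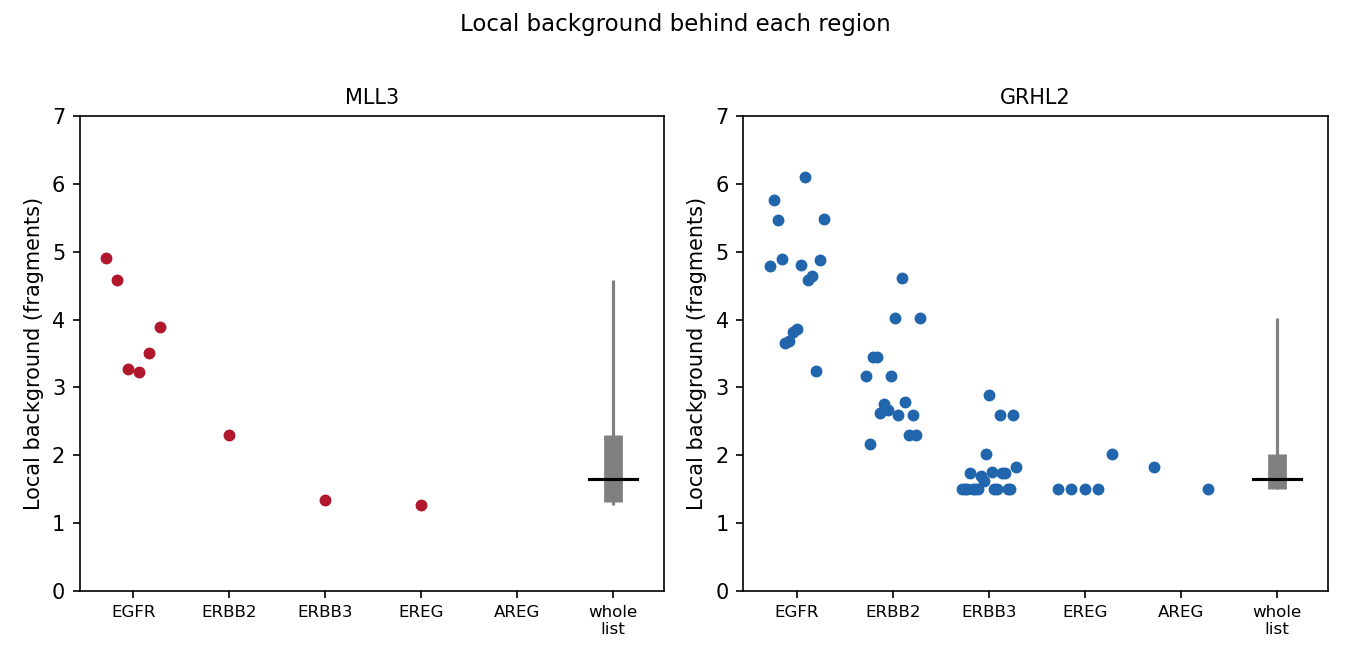
Local background in fragments, recovered from the deposited fold and p, of each MLL3 region (left) and GRHL2 region (right) by gene, beside the whole list (box: quartiles, line: 1st to 99th percentile, bar: median). The EGFR regions lie between 3.23 and 4.91 for MLL3 and between 3.24 and 6.10 for GRHL2, above the list medians of 1.64 and 1.65.

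Regions just outside the 50 kb limit were stronger than the members in some cases. An MLL3 region 53.8 kb past the end of ERBB2 (chr17:37938431-37939162) had a fold of 28.7 and overlapped a GRHL2 region, against 8.51 for the MLL3 region inside the gene. One 51.8 kb before the start of EGFR (chr7:55034913-55035453) had a fold of 12.7 and overlapped a GRHL2 region of fold 3.18. The nearest outside ERBB3 were 149.6 and 158.8 kb away, with folds of 6.30 and 7.36, and around the ligand genes the nearest were 255.7 kb before EREG and 490.9 kb past AREG, with folds of 14.1 and 7.98. For GRHL2, the member farthest from its gene was 49.6 kb past ERBB3 (fold 2.47), and the nearest region outside was 50.5 kb before ERBB2 (fold 2.63). A stronger GRHL2 region lay 51.0 kb before ERBB3, with a fold of 12.4 and a −log10 q of 25.9, and overlapped no MLL3 region.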

How the data were processed

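ChIP-seq libraries of KYSE510 cells for MLL3 and for GRHL2 (1 each) were used as deposited region lists. The submitters' processing notes name BWA, Picard, MACS2 and deepTools, with hg19 as the build. Their versions and settings are not given in what was used here. Per the labels' protocols, 5 ug of antibody was used. The deposited fold enrichment (a ratio), −log10 p-value and −log10 q-value are the authors' values for each region within its own list.

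From these, with Python 3.11.15, NumPy 2.4.6 and SciPy 1.17.1, regions on the assembled chromosomes were kept (leaving out 46 MLL3 and 345 GRHL2 lines), assigned to the genes, and overlapped by at least 1 bp. Fragments and background at each summit were solved from fold and p. The procedures were tested on simulated lists. Named regions were every MLL3 region, every GRHL2 region overlapping one, the 3 of highest GRHL2 fold per gene and any at a gene start; others given were chosen after their values were seen. The density of either list was taken over the same span, from the first to the last region of the 2 lists together on each chromosome. No hg19 annotation was used, so exons, introns and other ERBB family genes were not assigned. Of the RefSeq gene table (GRCh38.p14) only the order of genes was used. The genes and the measures were chosen with earlier results of these data known. Coordinates of regions are 1-based in hg19.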

Additional observations from a re-analysis of the deposited data

How the results depend on the processing

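Of 40 alternative settings, 20 kept a count within 1.5 times the reported one, a share within its interval or an equal median. Every ranking by fragments counted as changed, because the interval of a rank over a whole list is very narrow. For GRHL2 at ERBB2 a move from 99.8% to 99.9% was enough, so this tally says little about the ranks. The 9 MLL3 regions became 7 to 11 under all 6 of their settings. The 59 GRHL2 regions became 30 for −log10 q ≥ 2, 20 for −log10 q ≥ 5 and 21 in the genes without flanks, and the share with MLL3, 13.6%, became 26.7%, 35% and 33.3% in these settings. The share of MLL3 regions with GRHL2 was 100% with flanks of 25 kb and in the genes alone, which leave out the region between EREG and AREG, and the median summit distance was 79 bp in the genes alone and for −log10 q ≥ 5, and 82 bp with flanks of 100 kb. Ranking by fragments, chosen after seeing the data, put the strongest MLL3 region above 93.3% of its list at EGFR, 77.8% at ERBB2, 24.9% at ERBB3 and 32.1% at EREG, against 65.6%, 72%, 48.2% and 57.6% by fold. For GRHL2 it was 99.3% at EGFR, 99.9% at ERBB2, 99.8% at ERBB3, 95.9% at EREG and 92.1% at AREG, against 98.6%, 99.8%, 99.9%, 96.8% and 93.5%. No paired analysis was possible because only 1 library of each antibody exists here. The total depth of each library, not given in the files, limits which regions could be listed.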

Other observations

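The local background of GRHL2 regions was highest around EGFR and lower on both sides, which the few MLL3 regions within 1500 kb did not show. In bins of 500 kb counted from the middle of the gene, the median background of GRHL2 regions was 3.81 (19 regions) in the bin before the middle and 3.75 (19 regions) in the bin after it. It was 2.55 (14 regions) 500 to 1000 kb before and 2.81 (38 regions) 500 to 1000 kb after, 2.30 and 2.13 in the next bins outward, and 1.66 (13 regions) 1500 to 2000 kb after. In MLL3 regions the medians of the bins on either side of the middle were 3.27 (10 regions) and 3.89 (3 regions). Those outward to 1500 kb stayed level, at 3.27 (1 region) 500 to 1000 kb before, 3.44 (6 regions) 500 to 1000 kb after and 3.44 (2 regions) 1000 to 1500 kb after. Farther out the MLL3 medians were lower, at 3.06 (2 regions) 1500 to 2000 kb before and 2.14 (2 regions) 2500 to 3000 kb before. Around ERBB2 the GRHL2 medians of the 2 middle bins were 2.30 and 2.59, and those farther out to 3000 kb ran from 1.75 to 2.67, so no such rise was seen there. The source of the raised background was not tested.

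The strongest GRHL2 regions were not confined to the starts of the 5 genes. Of the 5 GRHL2 regions of the loci with a −log10 q ≥ 100, 1 lay over the start of ERBB3, 2 lay inside EGFR and ERBB2, and 2 lay past the end of ERBB3. The genes that follow ERBB3, PA2G4 and RPL41 first, were not placed in hg19. Whether the 2 regions past ERBB3 lie at the start of another gene was therefore not examined. The 5 regions were chosen after their values were seen.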
